A study of Rattus norvegicus with 17 samples.

Results

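The cytochrome P450 genes on a whole-genome rat array were compared in the colon mucosa of rats on a diet high or low in calcium. The set was chosen by name alone: every gene probe whose array name was Cyp followed by a family number and a subfamily letter, with Cyp24a1 and Cyp27b1 left out. It held 75 of the 41012 gene probes, which stood for 64 of 35537 genes once old array names were brought up to date through RefSeq accessions. A name changed for 19 of these genes, and RefSeq names are used throughout. Only probes that the scanner software called well above background in Cy5 on 8 or more of the 17 arrays, of either diet, were tested. By that rule 34 of the 64 P450 genes were tested, on 38 probes, among 27083 probes tested on the whole array.

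The animals were females of the inbred strain Fisher 344, aged 8 to 10 weeks when the diets began, that carried the HLA-B27/β2-microglobulin transgenes, and such rats are used as a model of spontaneous colitis. Every rat in both groups carried the transgenes, and rats without them were not analysed here. The 8 high calcium rats ate a purified Western-type diet with 120 mmol calcium per kg, in which the extra calcium replaced glucose. The 9 low calcium rats ate the same diet with 30 mmol calcium per kg. RNA came from scrapings of the mucosa, 1 array per rat, with the rat's RNA in Cy5 and pooled RNA from all of the rats in Cy3, and each value is a log2 ratio of a rat to this pool. The difference given for a gene is the high calcium mean minus the low calcium mean of these log2 ratios, with the standard error (SE) of limma's fit over the 17 rats. By their labels the arrays stand for separate animals, and no array had swapped dyes. In scrapings, fewer cells of a type and less RNA per cell cannot be told apart.

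P450 enzymes are haem proteins that insert an oxygen atom into a substrate, mostly with electrons passed on by P450 oxidoreductase. Members of the first families act mainly on drugs, plant compounds and other foreign molecules, and in the intestine they form part of the barrier between food and blood. Other members make or break down the body's own signals: retinoic acid, eicosanoids, steroids, bile acids and vitamin D.

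The Cyp26 enzymes clear retinoic acid, and Cyp26a1 itself is a classical retinoic acid target gene. The 250 bases before the start sites of both Cyp26 members are shown because these 2 genes gave the smallest p-values of the set, and because they differ in one motif. The sequences are RefSeq's, from build GRCr8, printed along the gene's own strand. The Cyp26a1 stretch lies at chr1:244883572-244883821 on the plus strand and the Cyp26b1 stretch at chr4:118616177-118616426 on the minus strand. Capitals mark the motif AGNTCANNNNNAGNTCA, a direct repeat of the kind that retinoic acid receptors are known to bind, searched on both strands.
Cyp26a1: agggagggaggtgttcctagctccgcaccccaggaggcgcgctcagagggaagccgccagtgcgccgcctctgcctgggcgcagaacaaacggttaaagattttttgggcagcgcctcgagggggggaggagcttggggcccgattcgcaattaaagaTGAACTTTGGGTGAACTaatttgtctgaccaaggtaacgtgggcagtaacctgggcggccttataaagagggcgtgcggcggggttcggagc
Cyp26b1: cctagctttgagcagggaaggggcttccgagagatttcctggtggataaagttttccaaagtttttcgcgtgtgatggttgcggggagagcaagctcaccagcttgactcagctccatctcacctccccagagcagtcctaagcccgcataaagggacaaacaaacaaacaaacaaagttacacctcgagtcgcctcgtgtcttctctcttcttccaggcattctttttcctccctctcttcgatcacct
In Cyp26a1 the motif covers bases 92 to 76 before the start and reads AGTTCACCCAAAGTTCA on the opposite strand. It was found in 25 of 33469 promoters of this length (0.0747%), and the narrower form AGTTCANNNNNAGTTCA, which this site also fits, in 3 of them (0.00896%). The table held promoters of 51 of the 64 P450 genes, and Cyp26a1 was the 1 gene among these 51 with either form. A match is a description of these letters and was not tested for binding.

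The tissue and its cells were checked first. All 12 epithelial markers were above background, among them Cdh1, Vil1 and the colonocyte transporter Slc26a3, while 4 of 6 liver markers, Alb, Fgb, Apoa1 and Ttr, were below it. The 9 tested fibroblast markers were all lower at high calcium, with a median difference of -0.47. Their mean per rat ran from -0.72 to 0.24 at high and from -0.09 to 0.49 at low calcium, and Thy1 was below background. All 6 neutrophil markers were lower (median -0.37), as were 6 of 7 macrophage markers (median -0.21). Of the epithelial markers 9 of 12 were higher (median 0.08), and of the goblet cell markers 4 of 5 (median 0.27). None of these markers passed the adjusted threshold. Lower at an unadjusted p under 0.05 (limma) were 9 of 9 fibroblast, 5 of 6 neutrophil and 4 of 7 macrophage markers, beside 5.18% of all probes. Higher at that limit were 3 of 5 goblet cell and 0 of 12 epithelial markers, beside 4.4% of all probes. On an array 60.6% to 72.5% of the probes lay well above background, and at most 3 spots were saturated.

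Many P450 genes that dominate in liver were not measurable in this mucosa. The 30 genes that were below background on too many arrays to be tested were Cyp1a1, Cyp1a2, Cyp1b1, Cyp2a1, Cyp2a3, Cyp2b15, Cyp2b21, Cyp2c7, Cyp2c12, Cyp2c13, Cyp2c22, Cyp2c23, Cyp2c37, Cyp2c65, Cyp2e1, Cyp2g1, Cyp2w1, Cyp3a2, Cyp3a23-3a1, Cyp4a3, Cyp4a8, Cyp4f4, Cyp4x1, Cyp7a1, Cyp8b1, Cyp39a1, Cyp46a1, Cyp11a1, Cyp19a1 and Cyp21a1. For 17 of them, including the dioxin-inducible Cyp1a1, the ethanol-inducible Cyp2e1 and Cyp7a1, the rate-limiting enzyme of bile acid synthesis, no probe was well above background on any array. The other 13 were above it on 1 to 6 arrays. Just under the limit of 8 arrays stood Cyp1b1 and Cyp8b1, each on 6 arrays, and just above it Cyp2u1 and Cyp11b2, each on 10. The Cyp1b1 probe detected more often was above background in 1 of 8 high and 5 of 9 low calcium rats, which was not tested. These genes have only an upper bound here, and no diet difference is given for them.

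**Figure D1:**
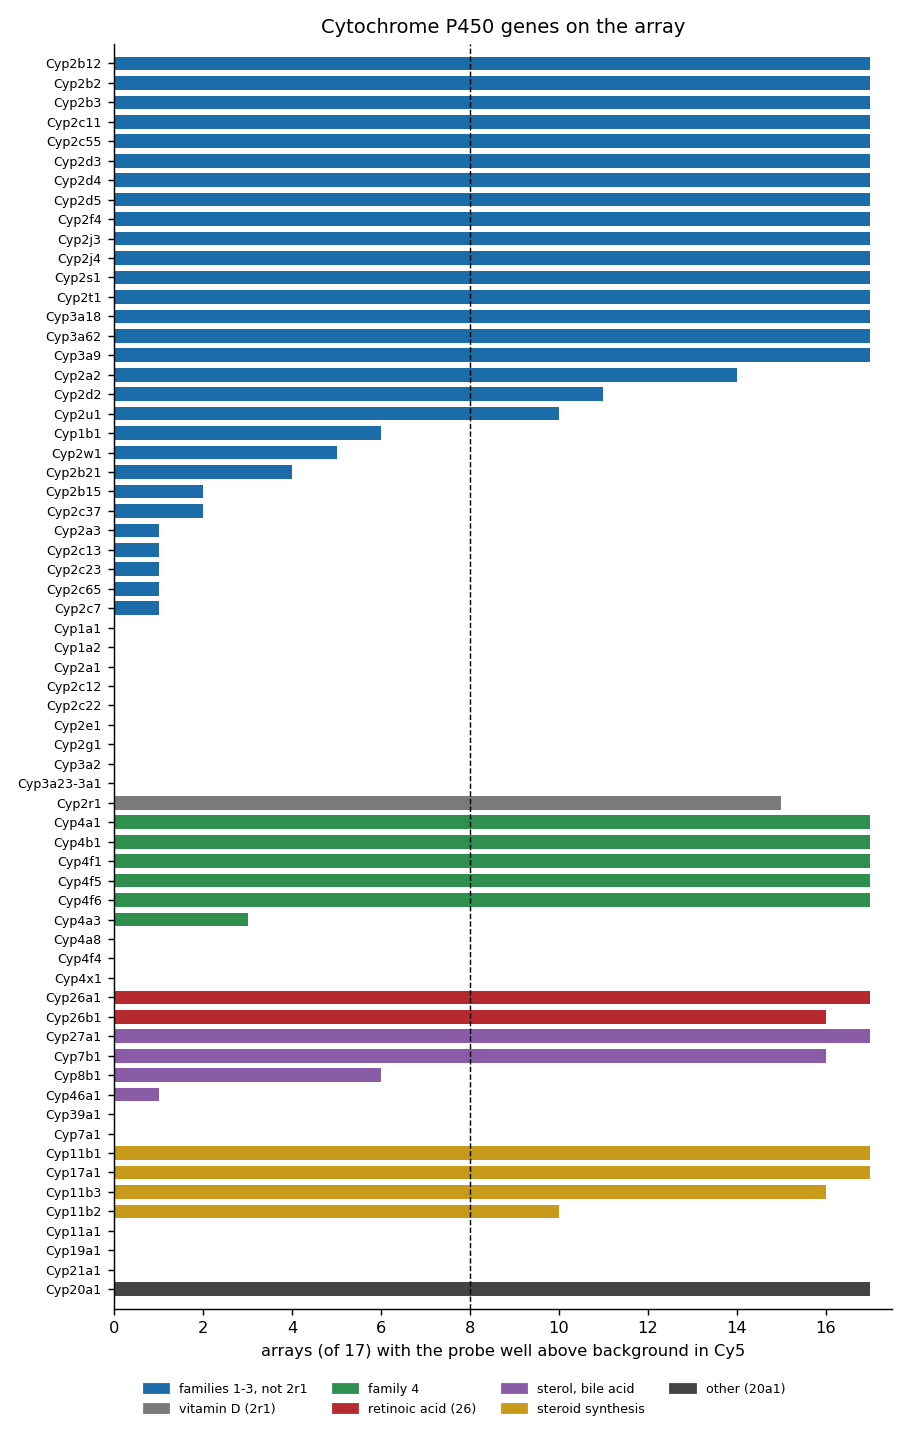
Number of arrays, of 17, on which each of the 64 P450 genes was well above background in Cy5, for the gene's most often detected probe, coloured by functional group. The dashed line is the limit of 8 arrays: 34 genes reach it, 26 of them on all 17 arrays, and 17 genes stand at 0.

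None of the 34 tested genes passed limma's test at an adjusted p under 0.05, and neither did any of the 27083 probes (0% called). At an unadjusted p under 0.05 there were 10 P450 genes, 6 higher and 4 lower at high calcium. The 6 higher genes are 17.6% of the tested members, beside 4.4% of all probes, and the 4 lower genes are 11.8%, beside 5.18%; in either direction 9.58% of all probes met this limit. With slide as a block there were 7 such genes, 3 higher and 4 lower, beside 8.87% of all probes; Cyp2b12, Cyp2j3 and Cyp2j4 were no longer among them, at unadjusted p of 0.106, 0.0599 and 0.0590. The median residual SD between rats of one diet was 0.16 over the members and 0.12 over all probes. The median difference was 0.02 over the members and 0.01 over all probes. The size of single differences depended on the background correction: from the signals that the scanner software had processed itself, called processed scanner signals, 17 of the 34 were over 1.5 times as large with the same sign. The range of values overlapped between the diets in all 34 genes, and 0.0295% of all probes had groups that did not overlap.

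**Figure D2:**
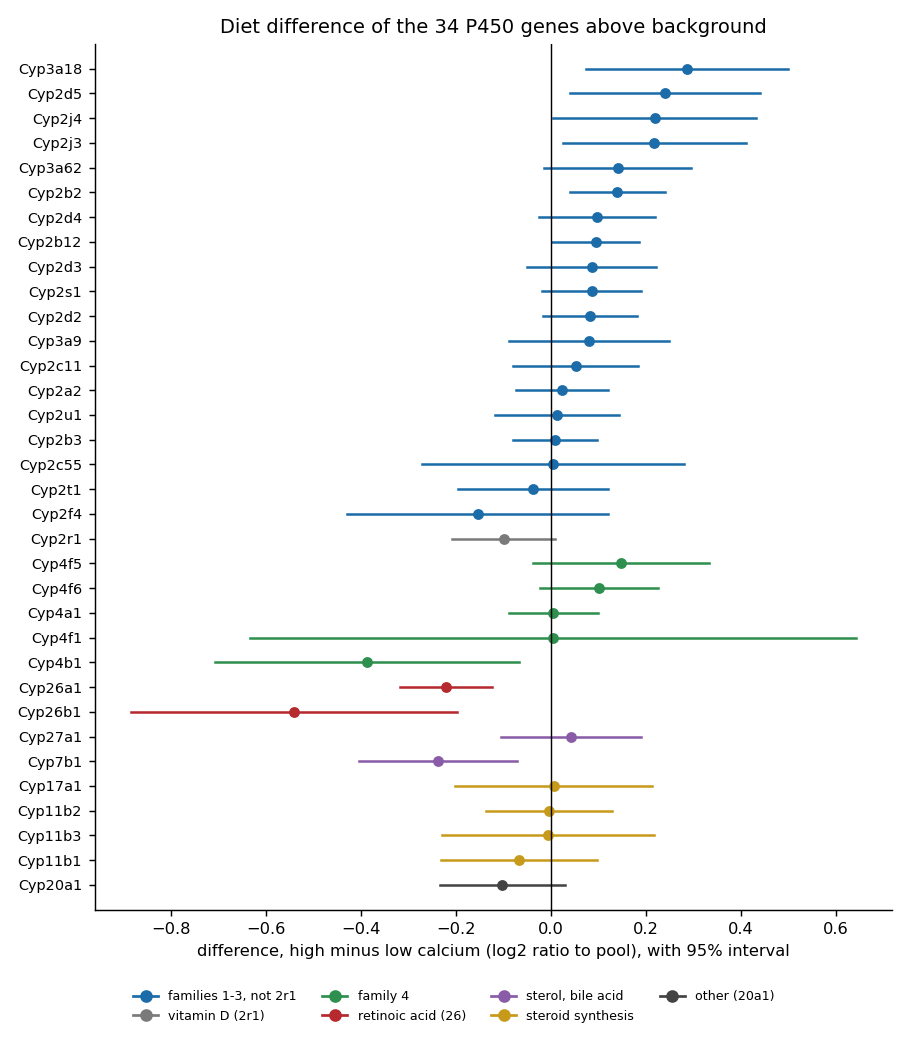
Difference between high and low calcium rats (log2 ratio to the pool) for the 34 tested P450 genes, with limma's 95% confidence interval, ordered within functional groups. In families 1, 2 and 3 without Cyp2r1, which has a colour of its own, 17 of 19 genes lie to the right of 0, and both Cyp26 genes lie to the left with intervals that exclude 0.

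Cyp26a1 had the smallest p of the set. Its log2 ratios ran from -0.15 to 0.07 at high calcium (median -0.10, n = 8) and from 0.03 to 0.26 at low calcium (median 0.16, n = 9). In 7 of the 8 high calcium rats the value was under the lowest of the other diet, and only rat 18 overlapped with it. The difference was -0.22 ± 0.05 (SE), or 1.16-fold lower (limma, unadjusted p = 0.000122, adjusted p = 0.0856; exact two-sided permutation p = 0.000576, unadjusted). It was of the same sign and like size on each of the 4 slides that held both diets, at -0.25, -0.21, -0.27 and -0.20. The probe lies at chr1:242135243-242135302 of build rn3, as the files give it, and its median signal over background was 134 intensity units, where array backgrounds were 43.5 to 53.5. The adjusted p fell under 0.05 without high calcium rat 3 (0.0393), without low calcium rat 16 (0.0427) and with array weights (0.0349), settings under which 1%, 0.262% and 0.314% of all probes were called. Over all 35 alternatives it ran from 0.0214 to 1.00, the latter with the fibroblast marker mean as a covariate. From processed scanner signals the difference was -0.37.

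Cyp26b1, the second enzyme of retinoic acid breakdown, had the largest difference of the 34 tested genes, at -0.54 ± 0.16 (SE), or 1.45-fold lower, and an adjusted p of 0.221 by limma. Its values ran from -0.46 to 0.11 at high calcium (median -0.27) and from -0.22 to 1.22 at low calcium (median 0.16). Low calcium rats 6 and 11, at 1.22 and 1.05, stood well above the rest, and 5 of 8 high calcium rats were under the low calcium minimum. Within slides the difference was 0.03, -0.78, -0.71 and -0.74; the first of these slides held low calcium rat 16, at -0.22 the lowest of its diet, and high calcium rat 3, at 0.11. Without both rats the adjusted p was 0.0507, the lowest over the alternatives. The difference itself was -1.42 from processed scanner signals and -0.01 with the fibroblast marker mean as a covariate. The probe, at chr4:118979795-118979854 of rn3, had a median signal of 86.0 over background.

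Both Cyp26 genes were also fitted with each rat's mean of the fibroblast markers, which were lower at high calcium too, as a covariate. In that fit the Cyp26a1 difference was -0.25 ± 0.07 (SE) and the Cyp26b1 difference -0.01 ± 0.19. Whether the genes differ in this was not tested. No P450 gene had an adjusted p under 0.05 there. With the epithelial marker mean the values were -0.24 for Cyp26a1 and -0.38 for Cyp26b1.

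The other genes of retinoic acid handling were given from a list of 13, of which 9 were tested: 3 were higher and 6 lower, with a median of -0.10, and none passed the adjusted threshold. Lrat, which stores retinol as esters, differed by 0.19 ± 0.09 (SE; limma adjusted p = 0.502) and the retinol dehydrogenase Rdh10 by -0.12 ± 0.06 (adjusted p = 0.568). The receptors Rara and Rarb differed by -0.0038 and 0.04. Of the retinoic acid synthesising enzymes, Aldh1a2 was below background. Aldh1a3 differed by -0.30 ± 0.16 and Aldh1a1 by -0.10 ± 0.08 (SE; limma adjusted p = 0.571 and 0.727).

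Cyp7b1, an oxysterol hydroxylase of the alternative pathway of bile acid synthesis, was the 1 of 2 tested sterol and bile acid genes at an unadjusted p under 0.05. Its values ran from -0.35 to 0.22 at high calcium (median -0.11) and from -0.09 to 0.39 at low calcium (median 0.15), and 4 of 8 high calcium rats were under the low calcium minimum. The difference was -0.24 ± 0.08 (SE; limma adjusted p = 0.288) and was negative on all 4 slides, from -0.07 to -0.35. With the fibroblast marker mean as a covariate it was 0.02, and from processed scanner signals -0.72. Cyp27a1, the mitochondrial sterol hydroxylase, differed by 0.04 ± 0.07 (adjusted p = 0.897).

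Family 4 enzymes hydroxylate fatty acids and eicosanoids, and 5 of its 9 genes were tested. Cyp4b1 was the 1 lower gene among them. Its values ran from -0.87 to 0.59 at high calcium (median -0.30) and from -0.32 to 0.56 at low calcium (median 0.14). High calcium rat 3, at 0.59, was the highest of all 17 rats, and 3 of the other high calcium rats were under the low calcium minimum. The difference was -0.39 ± 0.15 (SE), 1.31-fold lower, with a limma adjusted p of 0.403. Within slides it was 0.25, -0.40, -0.54 and -0.88, and with the fibroblast marker mean as a covariate its sign turned, to 0.24 ± 0.13; from processed scanner signals it was -0.78. Without rats 3 and 16 it was -0.56 with an adjusted p of 0.0181, where 1.55% of all probes were called; over all alternatives the adjusted p ran from 0.0181 to 1.00.

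**Figure D3:**
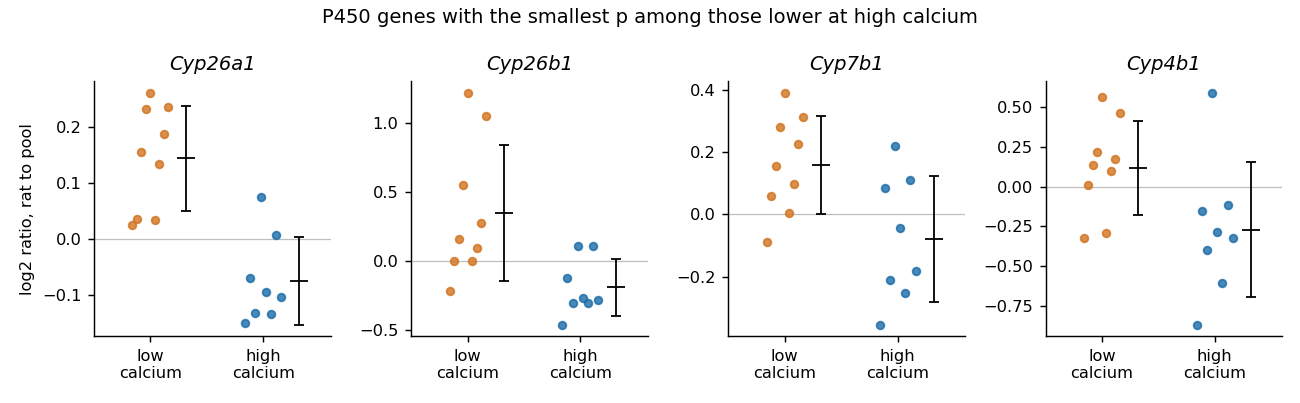
Log2 ratio to the pool of each rat for the 4 P450 genes with the smallest p among those lower at high calcium, with the mean and SD of each diet beside the points (9 low and 8 high calcium rats). Each panel has its own axis. In the Cyp26a1 panel 7 of 8 high calcium rats lie below all low calcium rats, and in the Cyp26b1 panel 2 low calcium rats stand above 1.

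The Cyp4f enzymes inactivate leukotrienes and other eicosanoids. Cyp4f1 ran from -1.60 to 0.79 at high calcium (median -0.27) and from -1.61 to 0.43 at low calcium (median -0.23), a residual SD of 0.73 and the largest of the set. The diets overlapped almost fully, and the difference was 0.0051 ± 0.31 (SE; limma adjusted p = 0.998), a value whose sign changed between settings. Cyp4f5 and Cyp4f6 differed by 0.15 ± 0.09 and 0.10 ± 0.06 (adjusted p = 0.638 and 0.627); with the fibroblast marker mean as a covariate both were negative, at -0.10 and -0.06. In Cyp4f6 the high calcium rats lay on both sides of the other diet, 5 above its maximum and 2 under its minimum.

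Families 1, 2 and 3 act mainly on foreign compounds, and Cyp2r1, a family 2 gene of vitamin D, is counted apart from them here. Of the other 38 genes 19 were tested, and 17 of these 19 were higher at high calcium (89.5%, where 54.1% of all probes were higher), with a median of 0.09; with Cyp2r1 it was 17 of 20 (85%). The lower ones were Cyp2f4, Cyp2t1 and, where counted, Cyp2r1. With the fibroblast marker mean as a covariate 10 of the 19 were higher (53.5% of all probes), and over all 34 tested members 15 were higher and 19 lower. That marker mean itself differed between the diets, at -0.25 for high and 0.26 for low calcium. The part of diet and that of the marker mean therefore cannot be told apart in this fit. All 6 genes at an unadjusted p under 0.05 were higher, and none passed the adjusted threshold. By subfamily, the tested genes were higher in 3 of 3 Cyp2b, 2 of 2 Cyp2c (1 of 2 with log ratios scaled between arrays, where Cyp2c55 turned), 4 of 4 Cyp2d, 2 of 2 Cyp2j and 3 of 3 Cyp3a. Members of a subfamily are close in sequence, so a probe may read its neighbours too; probe sequences were not used here, and these genes are not independent evidence of one another. With the fibroblast marker mean as a covariate no member was higher at an unadjusted p under 0.05, where 2.7% of all probes met that limit in either direction, and 3 were lower: Cyp26a1, Cyp2c55 and Cyp4f1. With the epithelial marker mean 2 were higher, Cyp2b2 and Cyp3a18, and 3 lower, beside 6.57% of all probes.

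Cyp3a18, a steroid and drug oxidising enzyme, had the largest difference of these families. Its values ran from -0.02 to 0.54 at high calcium (median 0.18) and from -0.48 to 0.30 at low calcium (median -0.08). Each of the 8 high calcium rats exceeded the average low calcium rat, and 3 exceeded the maximum of that diet. The difference was 0.29 ± 0.10 (SE), 1.22-fold higher (limma adjusted p = 0.321), and was positive on the 4 slides, from 0.08 to 0.64. With the fibroblast marker mean it was 0.24 ± 0.15, with the epithelial marker mean 0.26 ± 0.11, and from processed scanner signals 0.52. The other Cyp3a members differed by 0.14 ± 0.07 for Cyp3a62, an intestinal form, and 0.08 ± 0.08 for Cyp3a9 (adjusted p = 0.568 and 0.807).

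Cyp2b2, the phenobarbital-inducible form, ran from 0.07 to 0.32 at high calcium (median 0.20) and from -0.13 to 0.18 at low calcium (median 0.06). Again the 8 high calcium rats all exceeded the mean of the other diet, and 6 exceeded its maximum. The difference was 0.14 ± 0.05 (SE; limma adjusted p = 0.300), and it lay between 0.09 and 0.22 within slides. With the fibroblast marker mean as a covariate it was 0.08 ± 0.07 (limma unadjusted p = 0.263). The probes of this gene disagreed: 2 other tested probes differed by 0.06 ± 0.06 and -0.05 ± 0.06. Those 2 probes were dimmer, at median signals of 58.4 and 73.8 over background, beside 398 for the probe that represents the gene. Cyp2b12 ran from 0.11 to 0.26 at high calcium (median 0.16) and from -0.06 to 0.21 at low calcium (median 0.10), 8 of 8 high calcium rats exceeded the other diet's mean, and the difference was 0.10 ± 0.04 (limma unadjusted p = 0.0421, adjusted p = 0.498). It was 0.08 with slide as a block (unadjusted p = 0.106) and 0.44 from processed scanner signals (adjusted p = 0.193).

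Cyp2d enzymes oxidise many basic drugs. Cyp2d5 ran from -0.28 to 0.47 at high calcium (median 0.08) and from -0.36 to 0.24 at low calcium (median -0.19), and 7 of 8 high calcium rats exceeded the other diet's mean. The difference was 0.24 ± 0.10 (SE; limma adjusted p = 0.403). It was 0.0027 ± 0.13 with the fibroblast marker mean as a covariate and 0.16 ± 0.09 with the epithelial mean. Cyp2d2, Cyp2d3 and Cyp2d4 differed by 0.08, 0.09 and 0.10, with adjusted p of 0.609, 0.722 and 0.632. From processed scanner signals Cyp2d2 was 0.63 (limma unadjusted p = 0.0044, adjusted p = 0.251) and Cyp2d3 0.22.

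The Cyp2j enzymes turn arachidonic acid into epoxides. Cyp2j3 ran from -0.32 to 0.16 at high calcium (median 0.02) and from -0.53 to 0.15 at low calcium (median -0.35), with a difference of 0.22 ± 0.09 (SE; limma adjusted p = 0.441). Its second probe differed by 0.17 ± 0.07 (adjusted p = 0.482). Cyp2j4 ran from -0.26 to 0.57 at high and from -0.52 to 0.06 at low calcium, and 4 of 8 high calcium rats exceeded the low calcium maximum. It differed by 0.22 ± 0.10 (adjusted p = 0.503). Both were negative on 1 slide of 4, at -0.10 and -0.12, and positive on the other 3. Over all alternatives the difference ran from 0.11 to 0.27 for Cyp2j3 and from 0.06 to 0.26 for Cyp2j4, with limma unadjusted p up to 0.428 and 0.703.

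**Figure D4:**
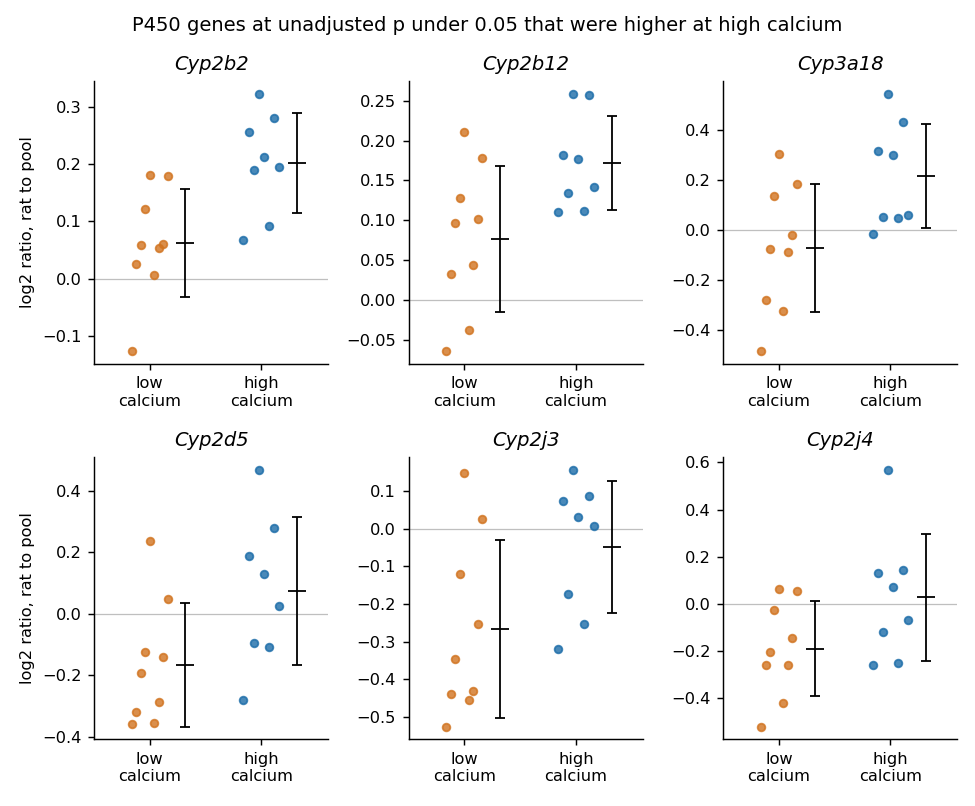
Log2 ratio to the pool of each rat for the 6 P450 genes at an unadjusted p under 0.05 that were higher at high calcium, with the mean and SD of each diet beside the points (9 low and 8 high calcium rats). Each panel has its own axis. For Cyp2b2, Cyp2b12 and Cyp3a18 each high calcium point is above the mean of the other diet, and the diets overlap in every panel.

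Cyp2c55, an arachidonic acid hydroxylase, varied widely: it ran from -0.35 to 0.42 at high calcium (median 0.07) and from -0.53 to 0.55 at low calcium (median 0.13). The difference was 0.0043 ± 0.13 (SE; limma adjusted p = 0.995) and its sign changed between settings. Cyp2c11 differed by 0.05 ± 0.06 (adjusted p = 0.842) and the epithelial enzyme Cyp2s1 by 0.09 ± 0.05 (adjusted p = 0.616), or 0.25 from processed scanner signals.

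Cyp2r1, which hydroxylates vitamin D, ran from -0.11 to 0.16 at high calcium (median 0.02, n = 8) and from -0.0022 to 0.31 at low calcium (median 0.10, n = 8, since the spot of rat 11 was left out as an outlier). In 3 of the 8 high calcium rats the value was under the low calcium minimum. The difference was -0.10 ± 0.05 (SE; limma adjusted p = 0.564). In the authors' deposited values, normalised otherwise, it was 0.07, of the opposite sign. Cyp20a1, a member of no known substrate, ran from -0.19 to 0.14 at high calcium (median -0.04) and from -0.18 to 0.25 at low calcium (median 0.09), with a difference of -0.10 ± 0.06 (adjusted p = 0.648).

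Among the steroid synthesising P450 genes 4 of 7 were tested, and their differences lay between -0.07 and 0.01. Cyp11b1, which makes corticosterone, ran from -0.31 to 0.30 at high calcium (median -0.06) and from -0.12 to 0.34 at low calcium (median 0.0035). It differed by -0.07 ± 0.08 (SE; limma adjusted p = 0.841), and its sign turned with the Cy5 channel alone (0.07) and in the deposited values (0.05). Cyp11a1, which takes the first step from cholesterol, and Cyp21a1 were below background on all arrays. The remaining tested genes, 10 with Cyp27a1 (Cyp2a2, Cyp2b3, Cyp2f4, Cyp2t1, Cyp2u1, Cyp4a1, Cyp11b2, Cyp11b3 and Cyp17a1 beside it) differed by -0.15 to 0.04, with adjusted p between 0.762 and 0.994.

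**Figure D5:**
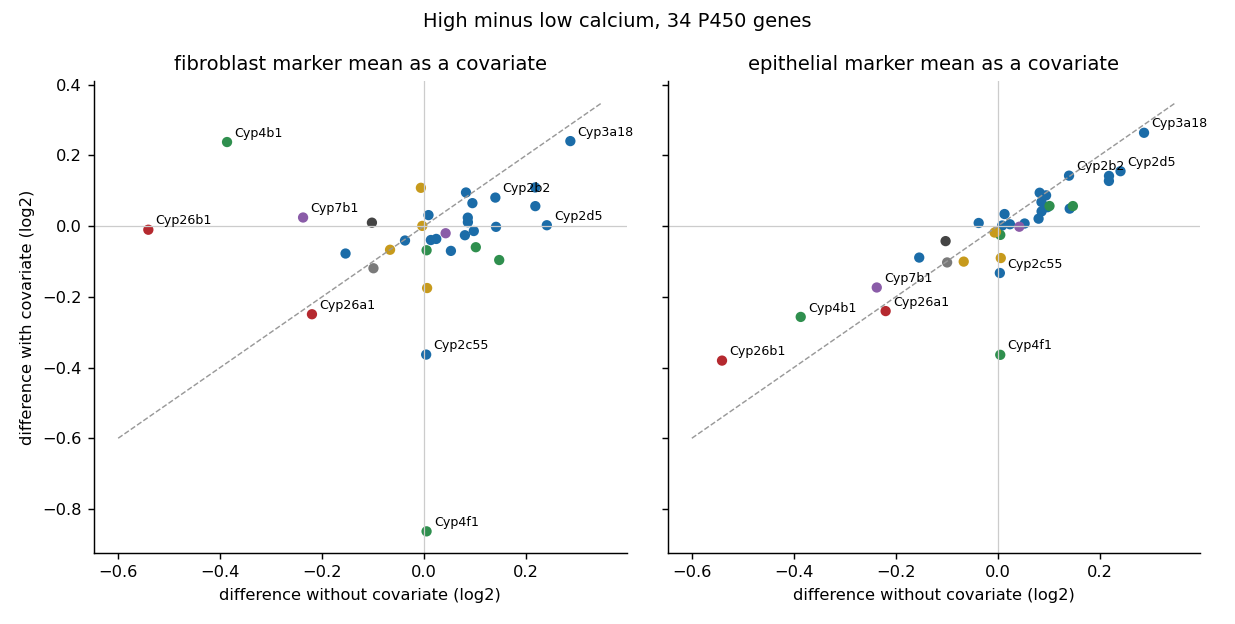
Difference between high and low calcium rats (log2) for the 34 tested P450 genes without a covariate (x axis) and with each rat's mean of the fibroblast (left) or epithelial (right) markers as a covariate (y axis), coloured by functional group as in the plot of differences. Points on the dashed line are equal in both fits. With the fibroblast mean Cyp26a1 stays near the line, Cyp26b1 and Cyp7b1 move to about 0, Cyp4b1 turns from -0.39 to 0.24 and Cyp4f1 from 0.0051 to -0.86.

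Members of one subfamily followed each other across rats in some subfamilies. Over the 17 rats, with the mean of each diet removed, 20 pairs were compared by permutation with Benjamini-Hochberg adjustment over the pairs. Cyp2j3 and Cyp2j4 had a Pearson r of 0.724 (permutation p = 0.00089, adjusted p = 0.00445) and a Spearman rho of 0.745 (permutation p = 0.00117, adjusted p = 0.0117), and r was 0.722 without the 2 rats farthest from the median. Cyp2d4 and Cyp2d5 had an r of 0.756 and a rho of 0.630 (permutation p = 0.00057 and 0.0081, adjusted p = 0.0038 and 0.027), with an r of 0.676 without those rats. Cyp11b1 and Cyp11b2, Cyp4f5 and Cyp4f6, and Cyp4f1 and Cyp4f6 had r of 0.807, 0.752 and 0.705, and 0.758, 0.639 and 0.670 without the 2 rats. The Cyp11b1 and Cyp11b2 probes were dim, at median signals of 83.0 and 51.3 over background. Cyp11b2 was well above background on 10 of the 17 arrays. Pairs of unrelated probes were not compared. The Pearson r of Cyp3a18 with Cyp3a9 (0.631) and of Cyp11b1 with Cyp11b3 (0.635) depended on 2 rats, and fell to 0.296 and 0.204 without them. Their Spearman rho over all 17 rats was 0.559 and 0.409 (permutation p = 0.0231 and 0.105, adjusted p = 0.0660 and 0.190). Cyp2d2 and Cyp2d3 had a negative r of -0.539 and a rho of -0.520 that missed the adjusted threshold (permutation p = 0.0245 and 0.0352, adjusted p = 0.0613 and 0.0880), and r was -0.587 without the 2 rats. Paired probes share arrays and may share sequence, and the part of either was not tested.

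The partners and regulators of P450 enzymes were taken from a list of 28 genes, of which 26 were tested. Of these 18 were higher and 8 lower, with a median of 0.04, where 54.1% of all probes were higher. The pregnane X receptor Nr1i2, which switches on Cyp3a and Cyp2b genes, differed by 0.18 ± 0.08 (SE; limma unadjusted p = 0.0306, adjusted p = 0.455). It was the 1 gene of these 26 at an unadjusted p under 0.05, a limit that 9.58% of all probes met. The liver X receptor Nr1h2 differed by 0.08 ± 0.04 and the soluble epoxide hydrolase Ephx2 by 0.10 ± 0.05 (adjusted p = 0.543 and 0.547). Por, the electron donor, differed by 0.04 ± 0.07 (adjusted p = 0.917), and Ahr, the receptor that drives Cyp1 genes, was below background.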

How the data were processed

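The 17 deposited scanner files hold intensity values of each spot in both dyes. Per the file headers they come from Agilent Feature Extraction 9.5.1.1, and version 9.5 is named in the submitters' processing notes. A deposited series matrix gives log2 values; the steps by which the authors made them are not given in the sources used here. Compared with the scanner files, they track the ratio of Cy5 to Cy3, with every array at a median of 8.72 and an unknown offset. They were used as an alternative.

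Intensities were background-corrected by normexp (offset 50), each array was normalised by loess, flagged spots were left out and the spots of a probe averaged, in limma 3.58.1 under R 4.3.3. Fitted on all spots, the normexp parameters were drawn off on low calcium rats 8, 11 and 16 by a few spots with a very bright local background (the median Cy5 signal over background of rat 11, 104, became 1254). They were therefore fitted on spots without an outlier flag, which gave 102. That choice was made after seeing the data, and the usual fit is an alternative. Each array is centred on its own spots, and a shift common to most genes would therefore be lost.

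A gene was represented by its brightest tested probe. The diets were compared in limma (lmFit, eBayes; two-sided tests) over all tested probes, with p-values adjusted by Benjamini-Hochberg and a threshold of 0.05. The script was tested on simulated data. Slides 1 to 4 held 2 rats of each diet and slide 5 held rat 1 alone. Values per rat are given for the 5 members with the smallest p in each direction, the 4 with the largest SD between rats, and the smallest p of each functional group; for gene lists, up to 3 members. The values of 1 listed gene under this rule are left out of the text. The value given for Cyp2j4, for genes of a subfamily beside these, for Cyp27a1, Aldh1a1, Aldh1a2, Aldh1a3, Rara, Rarb, Por and Ahr was added after values were seen. The members and lists were chosen with earlier results of these data known. Of 75 probes 59 were named by RefSeq accession, 14 by symbol and 2 kept the array's name. Probes whose gene has since received a P450 name lie outside the name rule.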

Additional observations from a re-analysis of the deposited data

Results flagged for a closer look

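In the 34 tested genes each diet group was searched for a single rat far from the rest of its group, by the gap to its nearest neighbour over the group's range. Of 68 groups 3 had such a rat, and chance alone flags about 1 in 20 groups. Cyp2d3 was 0.379 in low calcium rat 7, where the other 8 low calcium rats lay between -0.103 and 0.135. Cyp2u1 was -0.226 in low calcium rat 8, where the others lay between 0.02 and 0.241. Cyp11b3 was 0.693 in high calcium rat 9, where the other 7 high calcium rats lay between -0.283 and 0.122.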

How the results depend on the processing

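The precision is limited by 17 rats. No paired analysis was possible because the diets share no replicate numbers. Aquantile leaves log ratios as they are, so a scaling of log ratios between arrays was added after seeing the data, as were the fit of normexp on all spots and the joint omission of rats 3 and 16.

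Of the alternatives that kept all rats, array weights put 1 P450 gene (Cyp26a1) past limma's adjusted threshold and the others 0. Leaving out single rats the count ran from 0 to 1 (Cyp26a1 without rat 3 or rat 16), and without both it was 2 (Cyp26a1 and Cyp4b1). The count at an unadjusted p under 0.05 was 10, 7 with normexp fitted on all spots, 3 with the fibroblast and 5 with the epithelial marker mean as a covariate, and 5 (without high calcium rat 18) to 14 (without low calcium rat 15) leaving out single rats. Over all 27083 probes the counts moved too: 2595, 2381, 730 and 1780 in the first 4 of these fits, 1741 without rat 18 and 3076 without rat 15. The median difference was 0.019, 0.072 with the scanner software's processed signals, and 0.012 to 0.063 leaving out single rats. Signs turned with the fibroblast mean as a covariate in 18 of 34 genes: Cyp2c11 (-0.070), Cyp2c55 (-0.36), Cyp2d4 (-0.014), Cyp3a62 (-0.0019), Cyp3a9 (-0.026), Cyp4b1 (0.24), Cyp4f1 (-0.86), Cyp4f5 (-0.10), Cyp4f6 (-0.060), Cyp7b1 (0.025) and Cyp20a1 (0.0099), and, among genes given by range, Cyp2a2, Cyp2u1, Cyp4a1, Cyp11b2, Cyp11b3, Cyp17a1 and Cyp27a1 (-0.18 to 0.11). With the epithelial mean 6 turned: Cyp2c55 (-0.13), Cyp4f1 (-0.36), Cyp2t1, Cyp4a1, Cyp17a1 and Cyp27a1. Cyp2c55 also turned under scaling (-0.015) and array weights (-0.025), and ran from -0.072 to 0.067 leaving out single rats. Cyp4f1 turned with normexp on all spots (-0.071), median centring (-0.0016), scaling (-0.034), array weights (-0.024) and slide as a block (-0.010), and ran from -0.16 to 0.19 leaving out single rats. Under each other alternative on at most 34 genes, single omissions aside, 0 to 5 genes turned. Cyp2r1 turned in the deposited values (0.066), and Cyp11b1 there (0.053) and with Cy5 alone (0.068). The cause of these shifts was not tested.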

Other observations

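P450 genes known from liver as sex-dependent were not all below background in these female rats. Cyp2c11 and Cyp3a18, known as male-predominant in liver, were above background on 17 arrays, and Cyp2a2, another such gene, on 14. Of other male-predominant liver forms, Cyp2c13 was above it on 1 array and Cyp3a2 on 0. Cyp2c12 and Cyp2a1, female-predominant in liver, were above it on 0 arrays, and Cyp2c7, by its most often detected probe, on 1. These genes are examples and not a full list of sex-dependent forms. Cyp3a9 and Cyp3a62, not sorted by sex here, were above background on 17 arrays, so no pattern by sex is drawn. Probes of close relatives may share signal, which was not tested.

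Of 3 P450 genes with names outside the Cyp pattern, Tbxas1, the thromboxane synthase, differed by -0.17 ± 0.06 (SE; limma adjusted p = 0.311), Ptgis, the prostacyclin synthase, by 0.07 ± 0.07 (adjusted p = 0.826) and Cyp51, of cholesterol synthesis, by 0.01 ± 0.06 (adjusted p = 0.988). Among conjugation and efflux genes 15 of 23 listed were tested, 9 higher and 6 lower. The exporter Abcc3 differed by 0.24 ± 0.08 (adjusted p = 0.242), Fmo5 by -0.24 ± 0.10 (adjusted p = 0.445) and Nqo1 by -0.15 ± 0.07 (adjusted p = 0.488).

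Of the remaining cell type lists, 6 T and B cell markers were tested, 3 higher and 3 lower, 4 endothelial markers, 1 higher and 3 lower, and 5 smooth muscle markers, 2 higher and 3 lower. Of 6 hepatocyte markers Tf and Serpina1 were above background and differed by -0.30 and 0.06. None passed the adjusted threshold.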
